A study of Mus musculus with 47 samples.

Results

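The comparison described here sets the SC clones against the SI clones 2 days after doxycycline was withdrawn. It holds 8 of the 47 mouse libraries of the series, the 4 SC and the 4 SI clones sampled at d23, and they were chosen by class and sampling point alone. All 8 clones came from secondary mouse embryonic fibroblasts, which carry doxycycline-inducible reprogramming factors and so can be reprogrammed by the drug without a new infection. Both classes had 21 days with the drug and then 2 days without it. The labels do not spell out the names SC and SI. Other libraries used for orientation were the same clones after 14 and 21 days with the drug (d14 and d21), after 21 days with and 1 day without it (d22), and after 27 days with it (d27). The references were 4 iPS libraries, which are the SC clones given the drug for 21 days and then kept 6 days without it, and 3 libraries of feeder mouse embryonic fibroblasts without drug. The iPS libraries come from the SC clones themselves and are no independent set of cells.

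Doxycycline drives expression of the introduced factors Pou5f1, Sox2, Klf4 and Myc, and withdrawal stops it. A cell in which the endogenous pluripotency network of Pou5f1, Sox2, Nanog and Esrrb sustains itself keeps these genes on without the drug, and a cell in which it does not sustain itself returns toward a differentiated program. In fibroblasts that program includes collagens, contractile proteins and matrix enzymes, while embryonic stem cells divide fast and express replication, mitosis and ribosome genes at high levels. The deposited values are RPKM, which are reads scaled to gene length and to the reads of the library, and they do not separate endogenous from introduced copies of the 4 factors. Differences are given as SC minus SI on the scale of log2(RPKM + 1), which understates changes of low genes, with the standard error of the fit. A gene is called higher or lower in SC when limma's adjusted p was under 0.05. Genes were tested when they reached 1 RPKM in at least 4 of the 8 libraries. A gene under 1 RPKM in every SI clone therefore entered the test through the SC libraries alone. Its call higher in SC is partly set by that filter. Among such genes named below are Esrrb, Nr0b1, Trh, Lin28a, Dppa4, Tet1, Fgf4, Eomes and Otx2. Nothing in the labels says how far the clones of a class are independent cultures, so the p-values cover only the spread seen among them. In bulk RNA, fewer cells of a type and less RNA per cell cannot be told apart.

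At d23 SC1, SC3 and SC4 held many pluripotency genes near iPS levels and SC2 held them lower, together with replication, mitosis, repair and ribosome biogenesis genes, while the SI clones held high levels of smooth muscle, collagen and matrix genes close to those of feeder fibroblasts. SC2 lay near the SI clones in the latter. On the log2 scale its mean collagen level was 6.09, against 6.08 to 6.73 in SI. Its smooth muscle level was 6.46, against 6.64 in the lowest SI clone. Of 11805 genes tested, 2714 were called higher in SC (23.0%) and 2307 lower (19.5%), together 5021 (42.5%). Of these, 1742 differed at least 2-fold (14.8%), 977 higher (8.28%) and 765 lower (6.48%). The median difference of all genes was -0.01. The calls sat close to the threshold: their adjusted p had a median of 0.0297 and quartiles of 0.0246 and 0.0369, and 20 genes had one under 0.02. Leaving out any one of SC1, SC3, SC4, SI2, SI3 or SI4 left 2 to 9 calls, among them Trh and Lin28a each time, and leaving out SI1 left 1276. Leaving out SC2 raised the count to 7597, 31.0% of the genes higher and 33.3% lower. Leaving out SC2 and SI3 together gave 31.1% higher and 37.2% lower, and 1 fit over all 47 libraries 30.5% and 30.4%.

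The libraries SC2 and SI3 stood apart from their classes. Across the tested genes the SC2 profile correlated with SI1, SI2 and SI4 at r = 0.981, 0.974 and 0.980, against 0.918, 0.859 and 0.805 with SC1, SC3 and SC4. SI3 correlated with the 3 feeder libraries at 0.973 to 0.976, and with SI1, SI2 and SI4 at 0.922, 0.946 and 0.928. SC3 and SC4 were the most alike pair of SC clones, at 0.987. The first principal component of the 8 libraries held 79.4% of the variance and ran from SI3 at one end to SC4 at the other, with SC2 on the SI side of the centre. These correlations are across genes, which are not independent replicates. For genes called higher, SC2 lay at a median of 32.0% of the way from the SI mean to the mean of the other SC clones, and for genes called lower at 21.2%. Calls are also given below without SC2, and without SC2 and SI3 together, an alternative chosen after the data were seen.

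The transcription factors of the pluripotency network were the clearest group. Of 20 tested members 17 were called higher in SC and 0 lower, with a median difference of 2.41 against -0.01 for all genes. The count was 18 without SC2. Over all genes tested 23.0% were called higher, and 31.0% without SC2. Esrrb and Nr0b1 entered the test through the SC libraries alone. Nanog, a homeobox factor at the centre of the network, measured 80.7, 20.3, 100.2 and 105.4 RPKM in SC1 to SC4. In SI1 to SI4 it measured 0.63, 0.37, 0.12 and 2.76 RPKM. The classes did not overlap, and SC2 was the lowest of its class. The difference was 5.23 ± 0.56 (adjusted p = 0.0177), and the iPS mean was 102.2 RPKM. Esrrb, an orphan nuclear receptor, ran at 24.9, 5.35, 25.9 and 35.0 RPKM in SC1 to SC4 against 0.04 to 0.66 in SI, a difference of 3.91 ± 0.49 (adjusted p = 0.0190). Zfp42 (Rex1), a zinc finger marker of the naive state, was at 68.3, 12.9, 66.3 and 99.0 RPKM in SC and at 0.01 to 2.26 in SI. Nr0b1, a nuclear receptor of the same network, was at 13.4, 2.93, 11.4 and 11.1 RPKM in SC and at most 0.17 in SI. In all 4 genes SC2 was the lowest SC clone and still above every SI clone.

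The upstream sequence of Nanog is shown because it holds the joined octamer and SOX motif (TTTGCAT, any base, then ACAA), through which Pou5f1 and Sox2 proteins act together. It is taken from the RefSeq promoter table for build GRCm38.p6, from the 250 bases before the start of the gene, at chr6:122707374-122707465 on the plus strand. The capitals mark the motif, which begins 151 bases before the start.
Nanog: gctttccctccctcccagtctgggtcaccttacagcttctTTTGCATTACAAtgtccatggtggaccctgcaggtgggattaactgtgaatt
With both strands searched, 11 of 32851 promoters in the table hold this motif (0.0335%), and of the 15 list members with a promoter there Nanog was the one that did. A match describes letters in a window and is not a measured site.

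Of the 4 introduced factors, Pou5f1 and Sox2 differed between the classes and Klf4 and Myc did not pass the test. Pou5f1 (Oct4), the POU factor without which pluripotent cells are lost, was at 318.1, 153.5, 289.2 and 334.0 RPKM in SC1 to SC4. In SI1 to SI4 it was at 88.7, 71.2, 7.41 and 102.7 RPKM, so that every SI clone still stood above the feeder mean of 0.24, SI3 by the least. The difference was 2.43 ± 0.75 (adjusted p = 0.0352). At d21, with the drug, Pou5f1 had been at 588.6 to 1385.0 RPKM in SC and 539.4 to 1265.2 in SI. Sox2, its partner, was at 71.2, 13.9, 110.9 and 117.1 RPKM in SC against 1.51, 2.17, 2.06 and 2.75 in SI, a difference of 4.31 ± 0.60 (adjusted p = 0.0221). Klf4 was at 13.2, 7.25, 10.7 and 11.9 RPKM in SC and 6.54, 6.31, 9.24 and 7.10 in SI, and the classes overlapped (0.49 ± 0.19, adjusted p = 0.0671). Myc was at 7.20 to 12.4 RPKM in SC and 11.7 to 15.4 in SI (-0.39 ± 0.18, adjusted p = 0.106).

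The pluripotency effectors, genes that mark or serve the pluripotent state without being core factors, were called higher in all 19 tested members, with a median of 3.41. Over all genes tested 23.0% were called higher. Members such as Trh, Lin28a and Dppa4 entered the test through the SC libraries alone, so this count is partly set by the filter. Trh, which encodes the precursor of thyrotropin-releasing hormone and is a marker of mouse pluripotent cells, had the largest difference of all tested genes. It measured 205.5, 46.3, 111.2 and 145.5 RPKM in SC1 to SC4, and 0, 0, 0.02 and 0.42 in SI1 to SI4. The difference was 6.68 ± 0.40 and its adjusted p of 0.000864 was the lowest of all. Dppa5a, which binds RNA in pluripotent cells, was at 293.0, 63.2, 539.3 and 689.0 RPKM in SC against 0.13 to 11.1 in SI (6.22 ± 0.88, adjusted p = 0.0221). Lin28a, which blocks maturation of let-7 microRNAs, was at 64.9, 17.9, 53.1 and 54.4 RPKM in SC and 0.07 to 0.81 in SI (4.98 ± 0.39, adjusted p = 0.00398). Among the 10 largest rises were also Upp1 (uridine phosphorylase, 5.42), Dnmt3l (4.64), Utf1 (4.61), Tdgf1 (the Nodal co-receptor Cripto, 4.59) and Lefty1 (4.45). Dppa4, a chromatin-associated marker, was at 17.1, 2.79, 24.2 and 28.5 RPKM in SC and at most 0.48 in SI.

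**Figure D1:**
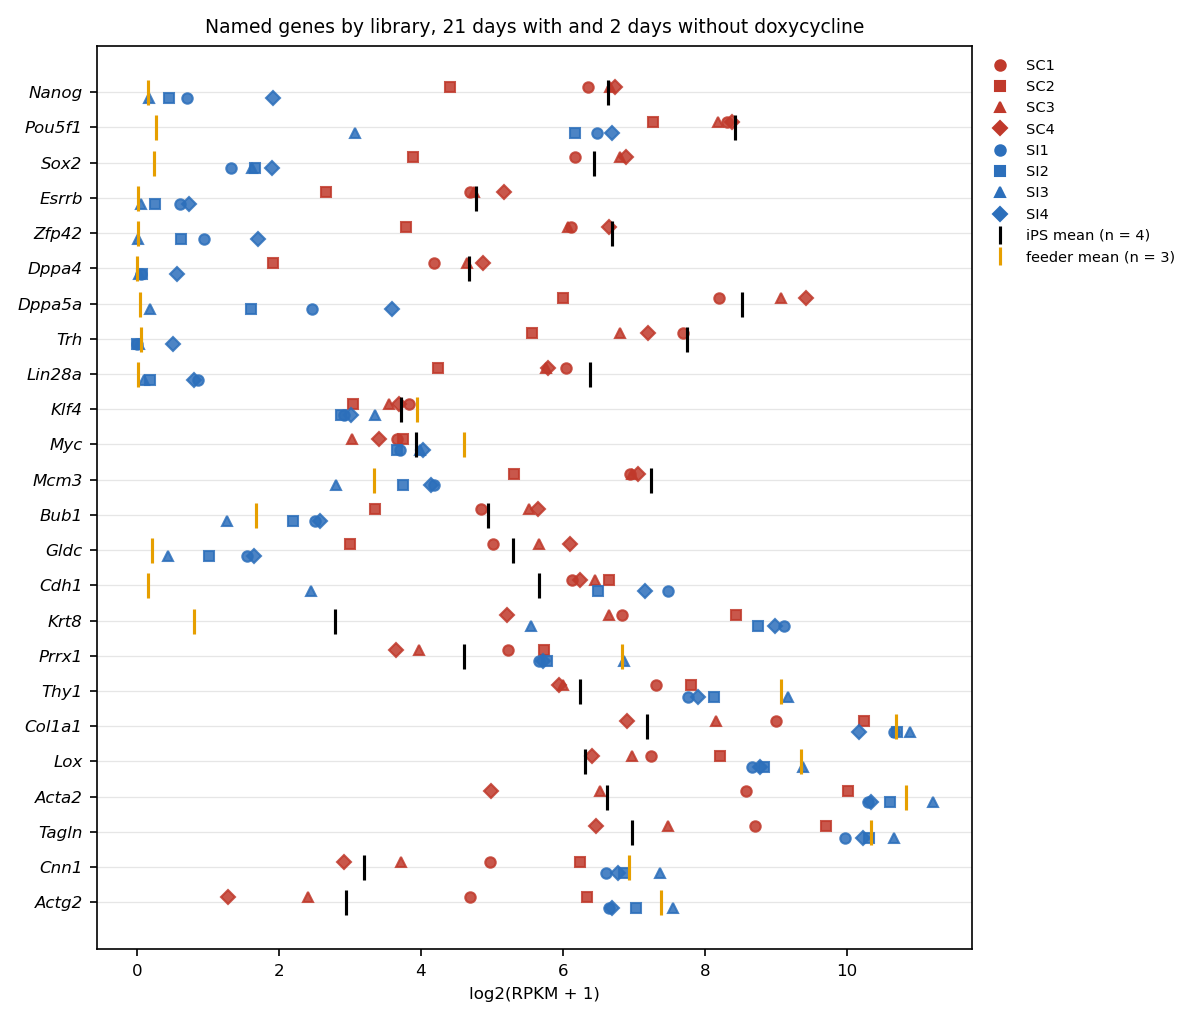
Level of 24 named genes on the log2(RPKM + 1) axis in each library at d23, SC clones in red and SI clones in blue with 1 symbol per clone number, beside the mean of the 4 iPS libraries (black bar) and of the 3 feeder libraries (orange bar). For Nanog, Trh and Lin28a all 4 SC clones lie to the right of all 4 SI clones with SC2 the lowest of its class, while Klf4 and Cdh1 overlap between the classes.

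Some genes were present in every SC clone and nearly absent from every SI clone. At 2 RPKM or more in all 4 SC libraries and under 0.5 in all 4 SI libraries there were 16 genes, and 15 of them were also under 0.5 in all feeders. No gene met the reverse rule. The 16, singled out after their values were seen, were Cyct, Nr0b1, Dppa4, Tdh, Trh, Sept1, Fgf4, Dppa2, Trap1a, Rpl10l, Ooep, Fgf8, Dnmt3l, Tcl1, Ina and Morc1. Cyct, the testis form of cytochrome c, was at 15.0, 3.12, 51.4 and 65.5 RPKM in SC and at 0, 0, 0 and 0.39 in SI. Tdh, threonine dehydrogenase, on which mouse embryonic stem cells depend for one-carbon units, was at 30.1, 6.02, 11.3 and 20.3 RPKM in SC and at most 0.27 in SI. SI clones had expressed some of these with the drug: at d21 their means were 14.0 RPKM for Tdh, 13.7 for Trh, 11.7 for Nr0b1 and 6.12 for Fgf4, against 0.105 for Dppa4, 0.02 for Dppa2 and 0.005 for Cyct.

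Signalling lists were called in both directions. The share of members called was 64.0% for Nodal, TGF-beta and BMP and 83.3% for LIF and STAT3, but 31.2% for FGF and 35.0% for Wnt, below the 42.5% of all genes. In the Nodal, TGF-beta and BMP list 5 of 25 members were called higher and 11 lower, with a median of -0.33. The members higher in SC were Nodal, its co-receptor Tdgf1, its feedback inhibitors Lefty1 and Lefty2 and the receptor Acvr2b. Lefty2 was at 110.4, 34.5, 83.6 and 117.2 RPKM in SC and 8.87, 8.71, 0.28 and 11.5 in SI (3.66 ± 0.73, adjusted p = 0.0221). The members lower in SC included the ligands Tgfb1, Tgfb2 and Tgfb3, the activin subunit Inhba, the receptor Tgfbr2 and the transducer Smad3. In the FGF list 3 of 16 were called higher and 2 lower. Fgf4, the autocrine FGF of embryonic stem cells, was at 13.6, 2.82, 34.3 and 48.8 RPKM in SC and at most 0.15 in SI, and its target Etv5 was at 17.0 to 69.6 RPKM in SC and 6.99 to 11.2 in SI (2.13 ± 0.39, adjusted p = 0.0221). In the LIF and STAT3 list 3 of 12 were higher and 7 lower. Lifr, the LIF receptor, was at 3.58, 3.56, 3.72 and 5.27 RPKM in SC and 1.26 to 2.32 in SI (0.87 ± 0.16, adjusted p = 0.0221), whereas the cytokine Il11 was at 0.89 to 8.81 in SC and 10.1 to 17.3 in SI (-2.09 ± 0.49, adjusted p = 0.0240). Among 20 tested Wnt genes 2 were higher and 5 lower. Tcf7, a transcription factor of the pathway, was at 15.9, 6.71, 49.8 and 50.7 RPKM in SC and 1.17 to 4.11 in SI.

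Cell division genes were higher in SC almost without exception. In the mitosis and spindle list all 24 members were called higher (median 2.06), in the DNA replication list 23 of 24 (median 1.82), and in the homologous recombination and mismatch repair list all 18 (median 1.62). Over all genes tested 23.0% were called higher. Bub1, a spindle checkpoint kinase, was at 27.9, 9.18, 44.9 and 49.1 RPKM in SC1 to SC4 and at 4.71, 3.59, 1.40 and 4.98 in SI1 to SI4 (2.70 ± 0.52, adjusted p = 0.0221). Mcm3, a subunit of the replicative helicase, was at 122.7, 38.6, 124.6 and 132.9 RPKM in SC and 17.2, 12.5, 6.00 and 16.7 in SI (2.85 ± 0.45, adjusted p = 0.0221). Mcm5, of the same helicase, was at 66.5, 20.2, 65.8 and 76.4 RPKM in SC and 3.32 to 11.6 in SI. Msh6, a mismatch recognition protein, differed by 2.65 ± 0.45. Tyms was the replication gene not called, at 2.65 to 4.94 RPKM in SC and 1.78 to 2.69 in SI. In each of these lists SC2 lay between the other SC clones and SI: its mean mitosis level was 3.57 on the log2 scale, against 4.80, 5.15 and 5.36 in SC1, SC3 and SC4 and 1.85 to 3.11 in SI. With the drug, the SI clones held mitosis levels of 4.60 to 4.76 at d21. In their samples kept on it until d27 the levels were 4.72 to 4.96.

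Mcm5 and Mcm6 are shown because E2F factors switch on replication genes through the letters TTTGGCGC, in capitals here, on the gene strand in Mcm6 and on the other strand in Mcm5. The windows lie at chr8:75109320-75109407 (plus strand) and chr1:128359768-128359855 (minus strand) of GRCm38.p6, from the RefSeq table.
Mcm5: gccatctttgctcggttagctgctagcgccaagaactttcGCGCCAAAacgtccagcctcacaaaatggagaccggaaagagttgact
Mcm6: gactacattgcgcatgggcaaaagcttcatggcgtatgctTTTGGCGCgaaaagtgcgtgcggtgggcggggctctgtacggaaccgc
The motif stood in 3 of the 20 replication genes with a promoter in the table (Mcm5, Mcm6 and Pola1) and in 137 of all 32851 promoters (0.417%).

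Ribosome biogenesis, nucleotide, one-carbon and glycolysis genes were higher in SC by smaller amounts, while oxidative phosphorylation and proteasome genes were called higher about as often as all genes. All 29 ribosome biogenesis genes were called higher (median 1.08). Ncl, nucleolin, was at 259.6, 116.1, 237.8 and 233.3 RPKM in SC and 55.5 to 80.0 in SI (1.59 ± 0.27, adjusted p = 0.0221), and Dkc1, the pseudouridine synthase dyskerin, was at 10.6 to 35.0 RPKM in SC and 4.17 to 5.75 in SI. Of 20 purine and pyrimidine synthesis genes 15 were higher and 0 lower (median 0.90), with Gart at 27.0 to 91.0 RPKM in SC and 13.5 to 17.3 in SI. The one-carbon list had 11 of 21 higher and 1 lower. Gldc, the glycine cleavage enzyme, was its largest member at 31.3, 7.01, 49.6 and 67.4 RPKM in SC and 1.92, 1.01, 0.35 and 2.13 in SI (3.78 ± 0.62, adjusted p = 0.0221). In the glycolysis and hypoxia list 15 of 23 were higher and 1 lower (median 0.81), the lower one being Vegfa at 15.4 to 26.4 RPKM in SC and 32.0 to 49.7 in SI (-0.91 ± 0.20, adjusted p = 0.0227). Slc16a1, a lactate transporter, was at 10.97 to 29.2 RPKM in SC and 4.81 to 6.07 in SI. Oxidative phosphorylation genes were called higher in 7 of 30 (median 0.32), close to the background share, and in 22 of 30 without SC2. Proteasome genes were called higher in 6 of 28, against 23.0% of all genes, and in 16 without SC2, against 31.0%.

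Chromatin genes divided by member, where 23.0% of all genes were called higher and 19.5% lower. In the DNA methylation list 8 of 13 were called higher and 2 lower. Dnmt3l, a cofactor of the de novo methyltransferases, was at 38.4, 4.13, 52.5 and 89.0 RPKM in SC and 0.07 to 0.43 in SI. Tet1, which oxidises methylcytosine, was at 17.7, 4.30, 17.3 and 18.7 RPKM in SC and 0.22 to 0.61 in SI (3.23 ± 0.40, adjusted p = 0.0190). In the Polycomb list 13 of 20 were higher and 3 lower. Phc1 was at 40.2, 14.4, 80.7 and 88.8 RPKM in SC and 3.23 to 6.65 in SI (2.86 ± 0.52), and Cbx7, the chromobox subunit prevalent in embryonic stem cells, at 14.3, 3.15, 17.8 and 23.8 against 0.30 to 1.55 (2.71 ± 0.52), each with adjusted p = 0.0221. The lower members were Phc2, Cbx8 and Bmi1. Of 18 remodelling genes 8 were higher and 3 lower, Hells with the largest rise of the list (2.46 ± 0.41). Mbd3, of the NuRD complex, had means that differed by 0.06 ± 0.13 (adjusted p = 0.727). Of 18 germline genes 2 were tested, and both were called higher. Tdrd12 was at 7.44, 1.07, 9.37 and 12.4 RPKM in SC and at most 0.03 in SI. Sycp3, of the meiotic chromosome axis, was at 6.61, 2.17, 29.0 and 35.4 in SC and 0.50 to 1.17 in SI. Tdrd12 entered the test through the SC libraries alone, so these calls do not describe the list.

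**Figure D2:**
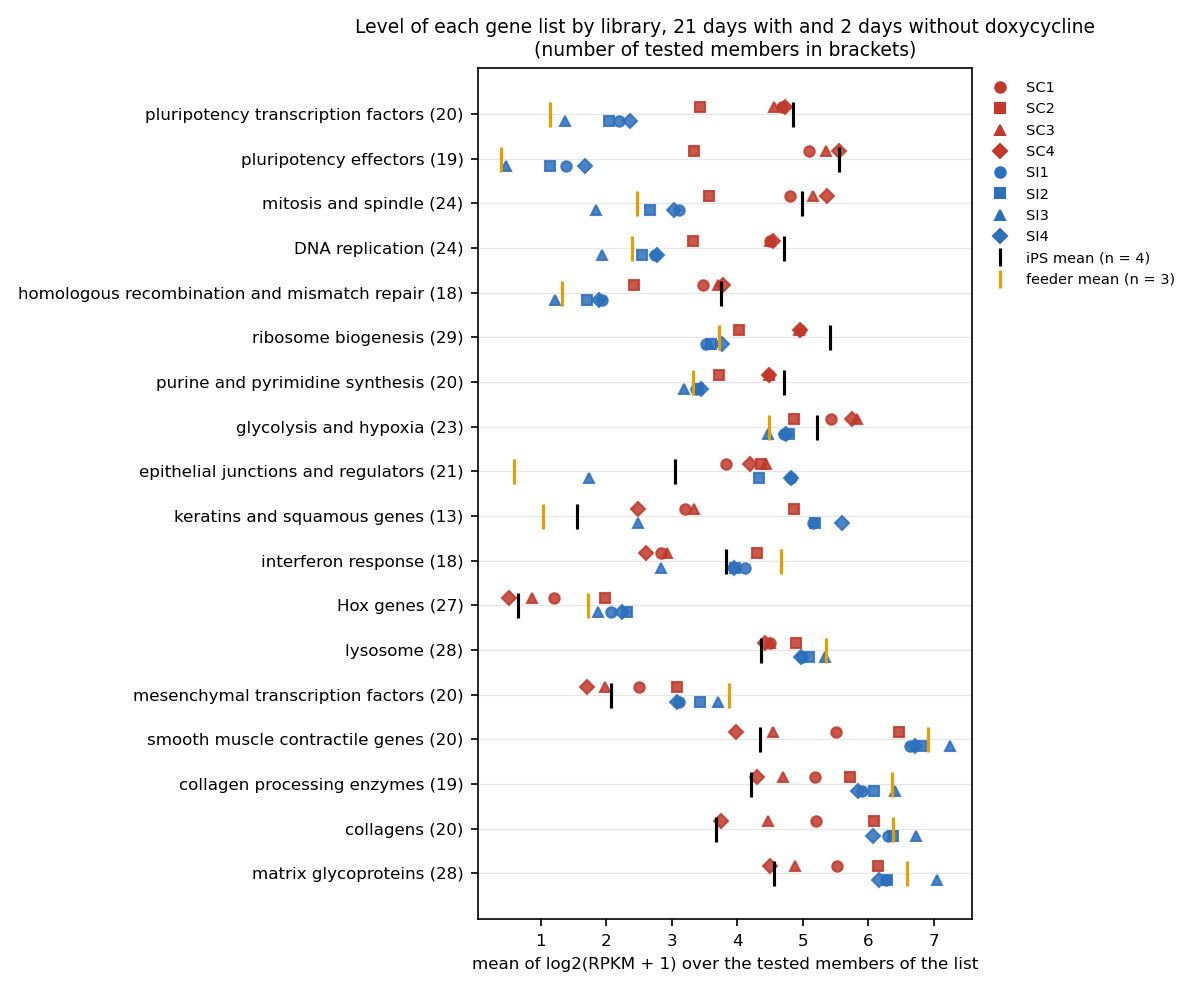
Mean of log2(RPKM + 1) over the tested members of 18 gene lists in each d23 library, with the iPS mean in black and the feeder mean in orange. Pluripotency, division and ribosome lists have all SC clones to the right of all SI clones, matrix and muscle lists show SC4 farthest left and SC2 next to the SI clones, and the keratin and interferon lists overlap between the classes.

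Smooth muscle contractile genes were lower in SC. Of 20 tested members 19 were called lower and 0 higher, with a median of -1.64, and 16 had all SC clones below all SI clones (14.2% of all tested genes). Over all genes tested 19.5% were called lower. Acta2, smooth muscle alpha-actin, was at 380.9, 1040, 91.1 and 30.9 RPKM in SC1 to SC4. In SI1 to SI4 it was at 1255, 1559, 2369 and 1292 RPKM, and the feeder mean was 1834. SC4 and SI3 were the extremes, and SC2 came within reach of the SI clones without overlapping them (-3.08 ± 0.95, adjusted p = 0.0355). Actg2, gamma smooth muscle actin, had the largest fall of all tested genes, at 24.9, 79.7, 4.32 and 1.42 RPKM in SC and 99.2, 130.2, 186.2 and 102.6 in SI (-3.30 ± 0.97, adjusted p = 0.0316). Tagln, the actin-binding protein SM22, was at 417.9, 832.7, 178.1 and 87.4 RPKM in SC and 1005 to 1631 in SI (-2.21 ± 0.62, adjusted p = 0.0300). Cnn1, calponin, was at 6.53 to 74.4 RPKM in SC and 96.4 to 164.7 in SI. Itga8 was the member not called, at 0.67 to 3.93 RPKM in SC and 2.44 to 12.5 in SI.

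Myl9 (myosin regulatory light chain) and Vcl (vinculin), both called lower, are shown because serum response factor acts on contractile genes through the CArG box, in capitals here. The windows lie on the plus strand at chr2:156775263-156775352 and chr14:20929148-20929220 of GRCm38.p6.
Myl9: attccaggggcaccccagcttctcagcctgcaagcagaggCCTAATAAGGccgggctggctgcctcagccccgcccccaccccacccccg
Vcl: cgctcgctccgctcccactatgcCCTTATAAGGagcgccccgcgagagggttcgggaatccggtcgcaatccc
A strict CArG box stood in 4 of the 18 list members with a promoter in the RefSeq table (Cnn2, Myl9, Srf and Vcl) and in 482 of all promoters (1.47%).

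Extracellular matrix genes were lower in SC in every class of component. Collagens were called lower in 15 of 20 (median -1.69), collagen processing enzymes in 18 of 19 (-1.19), matrix glycoproteins in 21 of 28 (-1.38) and matrix proteases and inhibitors in 16 of 21 (-1.40). Over all genes tested 19.5% were called lower. All SC clones lay below all SI clones in 7 collagens, 14 processing enzymes, 15 glycoproteins and 7 proteases or inhibitors. This held for 14.2% of all genes tested. Col1a1, the main fibrillar collagen chain, was at 512.6, 1213, 284.4 and 119.0 RPKM in SC and 1619, 1681, 1905 and 1155 in SI. Only SC2 reached the lowest SI clone, and the difference was -2.03 ± 0.63 (adjusted p = 0.0352). Lox, the collagen crosslinking oxidase, was at 151.1, 295.6, 124.5 and 84.1 RPKM in SC and 406.4, 454.9, 665.0 and 436.0 in SI (-1.70 ± 0.37, adjusted p = 0.0227). Other large falls were Ccn4 (-2.89), C1qtnf3 (-2.80), Cxcl14 (-2.64), Adam12 (-2.60), Pappa (-2.60), Lrrc15 (-2.54) and Prss23 (-2.49). Prss23os overlaps Prss23 on the opposite strand, and with no statement on strand their reads cannot be told apart. Cxcl14, a chemokine, was at 41.0 to 43.1 RPKM in SI1, SI2 and SI4 and 182.7 in SI3.

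Members that went against their list were few. Nid2 (nidogen 2, of the basement membrane) was the one glycoprotein called higher, at 48.8, 14.7, 68.7 and 80.3 RPKM in SC and 3.89 to 7.41 in SI (2.89 ± 0.48, adjusted p = 0.0221). Among the collagens it was Col18a1. Elastin, Eln, was at 0.33 to 1.41 RPKM in SC, 2.98 to 4.57 in SI and 0.743 in the feeder mean, so that the SI clones stood above both references. Decorin, Dcn, at 60.3 to 116.7 RPKM in SC and 75.3 to 297.6 in SI, and Mmp3, at 140.5 to 253.6 in SC and 91.0 to 224.7 in SI, were not called (adjusted p = 0.322 and 0.251).

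Fibroblast regulators, receptors and stress genes went the same way in part. Over all genes 19.5% were called lower and 23.0% higher, and without SC2 33.3% were called lower. Of 20 mesenchymal transcription factors 13 were called lower and 0 higher (median -1.09), and 18 were lower without SC2. Prrx1, a mesenchymal homeobox factor, was at 36.4, 52.2, 14.7 and 11.6 RPKM in SC and 49.9, 53.7, 115.6 and 51.8 in SI, and just missed the threshold (-1.36 ± 0.49, adjusted p = 0.0504). Thy1, a fibroblast surface glycoprotein, was at 158.7, 223.3, 63.0 and 60.4 RPKM in SC and 217.3 to 573.6 in SI (-1.47 ± 0.49, adjusted p = 0.0416), with SC2 inside the SI range. In the AP-1 list 10 of 16 were lower and 1 higher, Atf3 at 1.90 to 4.76 RPKM in SC and 5.29 to 15.3 in SI. In the p53 and CDK inhibitor list 8 of 20 were lower and 4 higher, the latter a share below that of all genes. Plk2 was at 19.9 to 76.3 RPKM in SC and 102.1 to 148.2 in SI (-1.78 ± 0.37), while Sesn1, a stress-response sestrin, rose by 0.72 ± 0.14 (adjusted p = 0.0225 and 0.0221). Lysosome genes were lower in 16 of 28 (median -0.49), among them Ctsd, cathepsin D, at 131.4 to 233.8 RPKM in SC and 290.8 to 416.6 in SI. Hox genes were lower in 10 of 27 and higher in 0 (median -0.90), and lower in 25 without SC2. Hoxb9 was at 3.53, 8.56, 1.95 and 1.24 RPKM in SC and 9.46 to 14.4 in SI.

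Summed levels of markers of other cells differed between the classes, some lower and some higher in SC. All 8 fibroblast markers were at 1 RPKM or more in every d23 library, and their summed level was 294.3 to 2121 RPKM in SC, 2092 to 3945 in SI and 3338 to 3584 in the feeders. All 7 macrophage markers reached 1 RPKM in at least 1 library. Their sum was 74.0 to 151.0 RPKM in SC and 175.4 to 336.4 in SI, highest in SI3, with 190.2 to 203.2 in the feeders. Single macrophage markers went both ways. C1qa, a complement gene, was at 0.89 to 5.86 RPKM in SC and 6.36 to 14.6 in SI, whereas Cd68, a lysosomal glycoprotein, was at 7.60 and 5.31 RPKM in SC1 and SC2, 29.7 and 33.2 in SC3 and SC4, and 6.12 to 9.42 in SI. Of the 5 endothelial markers 2 reached 1 RPKM (Pecam1 and Tek), and the endothelial sum was higher in SC, at 5.27, 1.97, 18.8 and 23.2 RPKM against 1.15 to 1.42 in SI. The same sum was 6.09 to 17.0 RPKM in the iPS libraries and 0.91 to 0.98 in the feeders. In the separate endothelial list of 10 genes the 1 tested member went the other way (-0.605) and was not called. The sum thus does not describe endothelial genes as a group. The endoderm sum was 3.22 to 15.3 RPKM in SC and 1.70 to 7.26 in SI, with overlap. Of the 4 muscle markers Myod1 and Ttn stayed under 0.1 RPKM in every d23 library, while Acta1 reached 1 RPKM in all of them. The muscle sum was 3.32 to 39.25 RPKM in SC and 31.34 to 75.77 in SI, with overlap, and 27.49 to 34.85 in the feeders. How far feeder or macrophage RNA in the cultures takes part in the matrix, muscle and lysosome differences was not tested.

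Keratin, junction and interferon genes did not follow the classes. Of 21 epithelial junction genes 1 was called, of 13 keratin and squamous genes 1 (Ivl, lower), and of 18 interferon response genes 1 (Irf1, higher), against 42.5% of all genes. Krt8, a keratin of simple epithelia, was at 112.7, 345.1, 99.5 and 36.1 RPKM in SC1 to SC4 and 555.3, 431.6, 45.8 and 507.7 in SI1 to SI4. It was high in SC2, SI1, SI2 and SI4 and low in the others (-1.32 ± 0.91, adjusted p = 0.246). Cdh1, E-cadherin, was at 69.2, 99.8, 86.3 and 74.5 RPKM in SC and 178.0, 89.3, 4.45 and 142.1 in SI (0.47 ± 0.98, adjusted p = 0.700), and the sign of the mean difference turned without SI3 (-0.68). Cldn4, a tight junction claudin, was at 60.5 to 285.6 RPKM in SC and at 458.3, 371.6, 23.6 and 544.2 in SI. Feeders held almost none of these, with means of 0.737 RPKM for Krt8, 0.117 for Cdh1 and 0.087 for Cldn4, and the iPS means of Krt8 and Cldn4 were 6.52 and 11.5. Both classes thus carried more Krt8 and Cldn4 at d23 than the mean of either reference.

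The same division of clones was seen in epidermal keratins and in an interferon gene, named after their values were seen. Krt14, a keratin of basal epidermis, was at 7.54, 104.7, 8.74 and 1.58 RPKM in SC and 92.3, 134.7, 7.35 and 133.1 in SI. Krt17 was at 7.69 to 11.7 RPKM in SC1, SC3 and SC4, 85.7 in SC2, 81.4 to 91.4 in SI1, SI2 and SI4, and 1.42 in SI3. Isg15, a ubiquitin-like protein induced by interferon, was at 10.45, 94.7, 4.64 and 2.56 RPKM in SC and 92.3, 74.4, 18.5 and 76.5 in SI. In each, SC2 lay with SI1, SI2 and SI4. Without SC2, 10 interferon genes were called lower and 1 higher, and without SC2 and SI3 all 13 keratin genes were called lower. In that fit 3 junction genes were called higher and 9 lower, and the median of the junction list turned from 0.47 to -0.40, so these calls depend on which libraries enter.

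**Figure D3:**
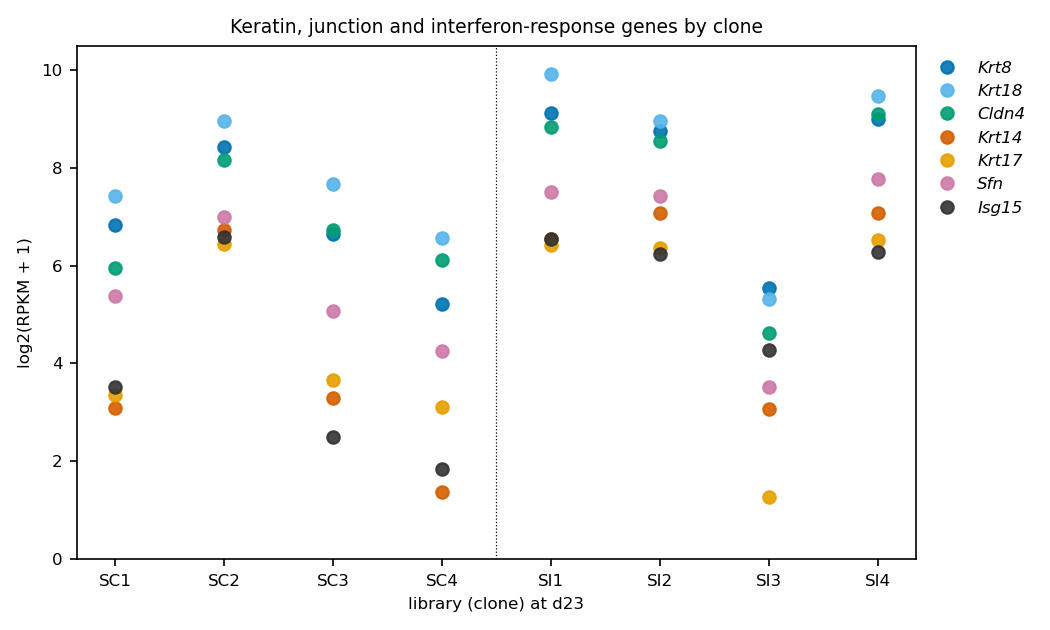
Level of 7 keratin, junction and interferon-response genes on the log2(RPKM + 1) axis in each d23 library, with a dotted line between the SC and the SI clones. SC2 resembles SI1, SI2 and SI4, whereas SI3 is low like SC1, SC3 and SC4.

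Isg15 and Ifit1 are shown because the interferon response element, here in the form TTTC, any 2 bases, then TTTC (all matches in capitals, 3 that overlap in Isg15, on the other strand, and 2 in Ifit1), stood in 8 of the 17 interferon genes with a promoter in the RefSeq table and in 978 of all promoters (2.98%). The windows lie at chr4:156200835-156200924 (minus strand) and chr19:34640745-34640834 (plus strand) of GRCm38.p6.
Isg15: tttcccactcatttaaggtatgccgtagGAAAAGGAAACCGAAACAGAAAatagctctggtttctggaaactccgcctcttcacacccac
Ifit1: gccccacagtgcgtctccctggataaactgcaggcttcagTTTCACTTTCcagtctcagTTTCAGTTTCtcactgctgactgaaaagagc

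The direction of the calls followed the difference between the reference cells. Of the 2714 genes higher in SC, 2688 had a higher mean in iPS than in feeder libraries (99.0%), and of the 2307 lower in SC 9 did (0.39%), against 51.7% of all genes tested. The iPS libraries are later samples of the same SC clones, so this likeness is a description of one course and not a test. For genes higher in SC, the SC level lay below the iPS level by a median difference of -0.21, and the SI level lay above the feeders by 0.19. For genes lower in SC, the SC level lay above iPS by 0.29 and the SI level below the feeders by -0.12. A few genes left this axis. Tgfb2, Nrep, Rdh10 and Cd200, picked after their values were seen, were lower in SC and had a mean RPKM in SI more than 4-fold above both reference means. SC2 lay inside the SI range in each and stood above both reference means too. Nrep was at 62.5, Rdh10 at 11.2 and Cd200 at 8.74 RPKM in SC2. SI3 was the lowest SI clone in each, and there Rdh10 was at 8.06 and Cd200 at 4.94 RPKM, against feeder means of 3.11 and 1.57. Tgfb2 was at 5.27, 28.8, 2.45 and 0.91 RPKM in SC and 35.3, 39.7, 23.7 and 27.4 in SI, a difference of -2.43. In the other direction, Igfbp2 and Aldoc stood more than 2-fold above both reference means in SC3 and SC4. Igfbp2 was at 126.9, 68.6, 417.1 and 398.6 RPKM in SC and 26.8 to 65.3 in SI, and Aldoc (aldolase C) at 5.94, 4.10, 19.8 and 21.5 against 0.46 to 2.87.

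**Figure D4:**
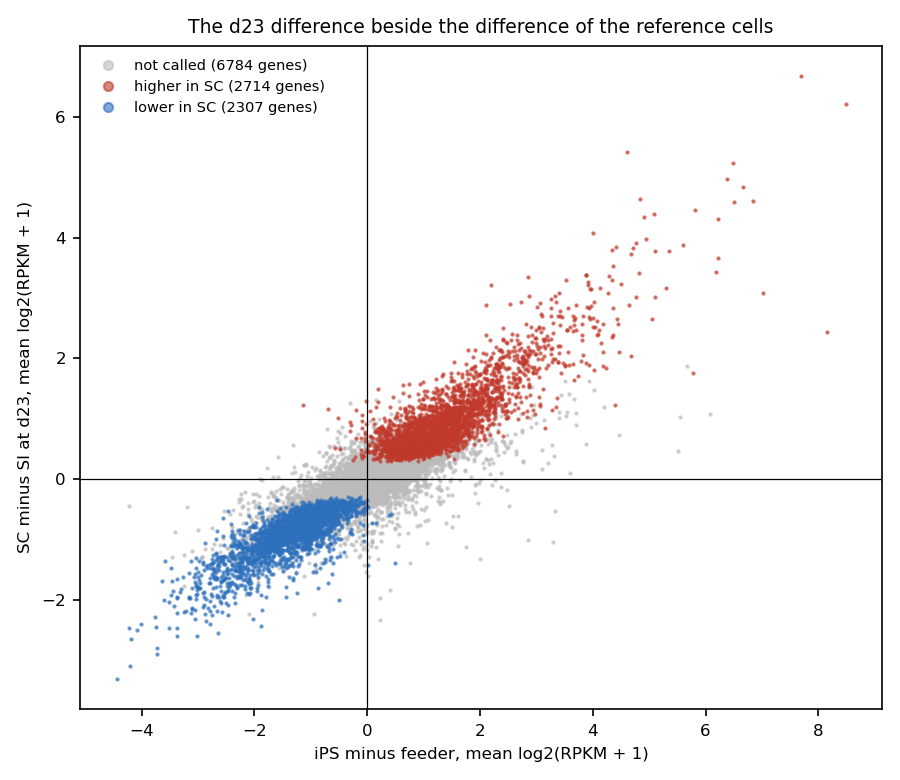
Each point is one of the 11805 tested genes, with the iPS minus feeder difference on the horizontal axis and the SC minus SI difference at d23 on the vertical axis, both in means of log2(RPKM + 1). The 2714 genes called higher (red) lie almost all to the right of 0 and the 2307 called lower (blue) almost all to the left.

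Single lineage and imprinted genes varied between clones of a class. Fgf8 and T (brachyury), both genes of the primitive streak and named after their values were seen, were at 13.2 and 4.97 RPKM in SC1, 3.22 and 1.60 in SC2, and 2.83 to 3.23 and 0.28 in SC3 and SC4. Their iPS means were 13.9 and 8.12 RPKM, and in SI they were at most 0.02 and 0.01. Eomes, of the same stage, was called higher in SC at 5.45, 2.10, 1.07 and 2.90 RPKM against at most 0.16 in SI (1.68 ± 0.30, adjusted p = 0.0221). Otx2, a factor of anterior neural and epiblast cells, was at 9.76, 1.60, 18.3 and 25.2 RPKM in SC and at most 0.10 in SI (3.35 ± 0.62, adjusted p = 0.0221). Of 15 imprinted genes 2 were called higher and 4 lower, together a share close to the 42.5% called among all genes tested. Igf2 was at 11.95 to 33.9 RPKM in SC and 293.0, 141.4, 82.5 and 45.7 in SI (-2.22 ± 0.56, adjusted p = 0.0257), while Peg10 ranged from 84.7 to 305.2 in SC and 30.0 to 588.8 in SI and was not called.

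The second day without the drug was compared with the first. No gene of 12597 passed the test of the difference between the gap at d23 and the gap at d22 (0.0% called by limma, 621 at an unadjusted p under 0.05). The d22 and d23 libraries of one title are the same clone, and with clone as a block in the fit 73 genes passed (0.58%), 69 with a gap that rose (0.548%). Nanog was among them. At d22 it was at 30.2, 12.1, 56.9 and 62.4 RPKM in SC1 to SC4 and 11.4, 6.13, 0.36 and 10.8 in SI1 to SI4, so that between the days it went up in each SC clone and down in each SI clone. Its gap grew by 2.72 ± 0.48 (adjusted p = 0.0477 with the block, 0.782 without). Esrrb went from 10.8, 3.28, 18.1 and 24.2 RPKM in SC at d22 to the d23 values above, and from 0.13 to 1.72 RPKM in SI down to 0.04 to 0.66, a growth of 1.29 ± 0.20 (adjusted p = 0.0364 with the block). Gldc (1.23 ± 0.13), Mcm3 (1.28 ± 0.20), Phc1 (1.27 ± 0.18), Cbx7 (1.11 ± 0.16), Msh6 (0.91 ± 0.15) and Otx2 (0.89 ± 0.12) grew too, with block-adjusted p from 0.0177 to 0.0422. Sox2, at 1.11 ± 0.21, missed the threshold (adjusted p = 0.0541 with the block), as did Acta2 at -1.61 (0.101) and Col1a1 at -0.99 (0.113).

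Acta2 shows how the clones parted over these days. At d21 it was at 152.7, 133.6, 67.2 and 71.0 RPKM in SC and 173.3, 156.2, 484.3 and 109.1 in SI. At d22 it was at 485.4, 391.6, 133.3 and 117.0 RPKM in SC and 457.7, 613.8, 1464 and 430.3 in SI. At d23 it was lower than at d22 in SC1, SC3 and SC4 and higher in SC2 and in all SI clones. The mean level of the smooth muscle list moved likewise, from 5.92 to 5.51 in SC1 on the log2 scale and from 5.67 to 6.46 in SC2. From d22 to d23 the mean of the pluripotency factors went from 3.13 to 3.43 in SC2, and that of the effectors from 2.92 to 3.34. In SC1 both means were higher at d23 too, at 4.68 and 5.10. In SC3 and SC4 both means were slightly lower at d23, at 4.57 and 4.72 for the factors against 4.65 and 4.84 at d22. In SI1 to SI4 both were lower at d23 as well.

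**Figure D5:**
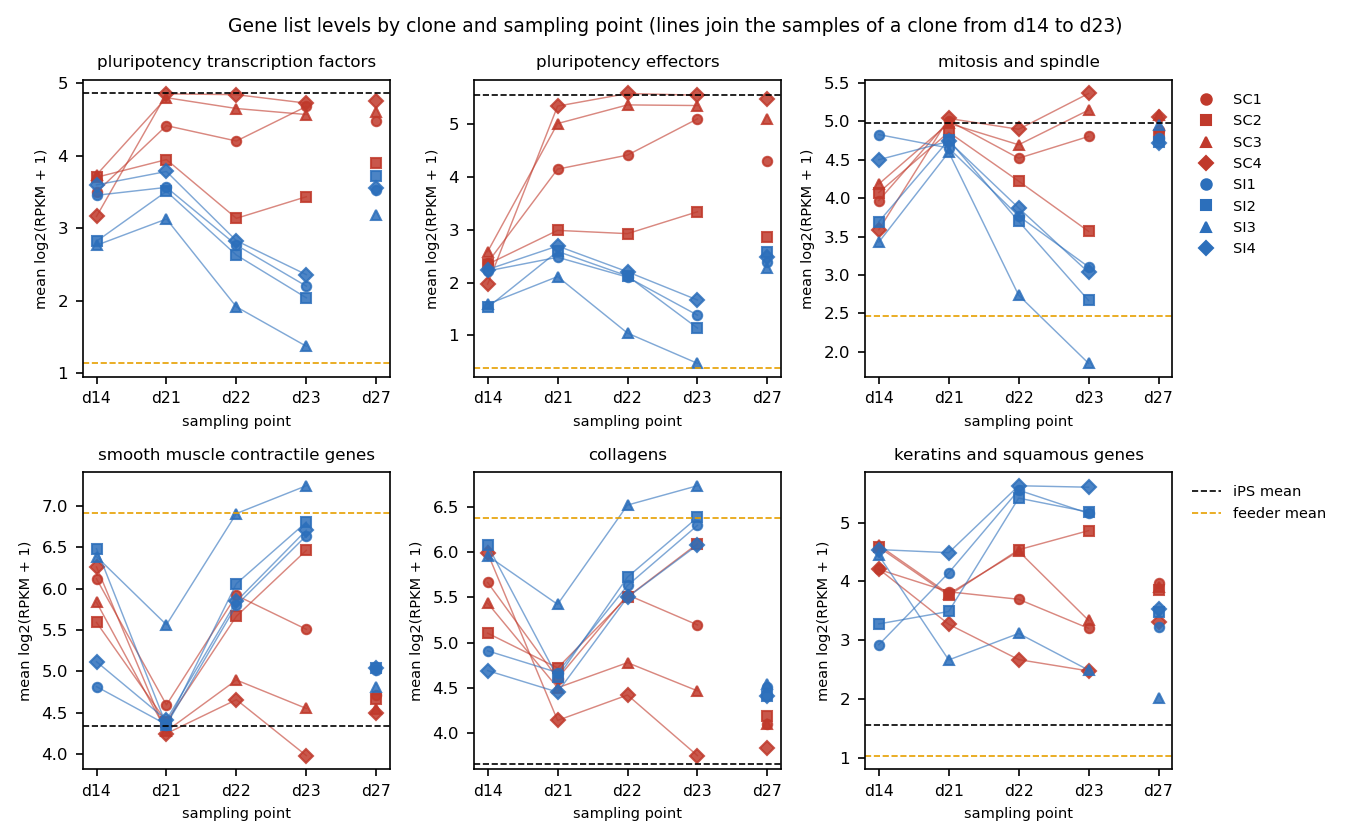
Mean of log2(RPKM + 1) over the tested members of 6 gene lists for each clone at the sampling points d14, d21, d22, d23 and d27, with lines joining d14 to d23, where d22 and d23 are 1 and 2 days after withdrawal and d27 is 27 days with the drug, and dashed lines for the iPS (black) and feeder (orange) means. From d22 to d23 the pluripotency lists fall in every SI clone and the smooth muscle and collagen lists rise there, SC1, SC3 and SC4 go the other way in the muscle and collagen lists, and SC2 rises in both kinds.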

How the data were processed

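Messenger RNA was sequenced by the authors from 47 mouse libraries, and the 8 SC and SI libraries at d23 were compared. The deposited table of 22632 genes gives 1 value per library, which the values identify as RPKM made by the authors. The unit is named neither in the table nor in the labels. Per the submitters' processing notes, CASAVA 1.8 and genome build mm9 were involved, with no step named. The aligner, the annotation and whether strand was used are not given in sources used here. RPKM times GENCODE M21 exon length in gigabases summed to 0.824 to 0.997 in these 8 libraries, where RPKM over all reads gives 1. Steps of 1 read in low values of short genes were found in 7 of them and imply 27.0 to 97.8 megareads, up to a whole multiple, so that 1 read in a 1 kb gene equals 0.0102 to 0.0370 RPKM. Between 11045 and 11839 genes reached 1 RPKM. Time with and without doxycycline follows each library's characteristics, because the protocol's account of d22 and d23 gives another schedule.

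Genes with at least 1 RPKM in at least 4 of the 8 libraries were tested two-sided on log2(RPKM + 1). The linear model was limma 3.58.1 (R 4.3.3), moderated by eBayes using a trend in the mean, with Benjamini-Hochberg adjustment over all genes tested and a threshold of 0.05. The change of the gap from d22 to d23 was an interaction over 16 libraries. There the d22 and d23 libraries of a clone are paired by title, and their deviations from the class mean correlated at 0.395 to 0.825. The 45 gene lists hold 928 genes, of which 921 were found and 827 tested. The members and lists were chosen with earlier results of these data known. Named genes are the 10 largest rises and 10 largest falls among called genes whose classes did not overlap and whose higher class averaged 5 RPKM or more. To these come, for each list, up to 2 called members (those of lowest adjusted p) and the most abundant 1 not called, and a set always named, which are Pou5f1, Sox2, Nanog, Esrrb, Zfp42, Klf4, Myc, Dppa4, Dppa5a, Trh, Cdh1, Krt8, Thy1, Col1a1, Acta2 and Tagln. Predicted genes were passed over. Alternatives were a pseudocount of 0.1, no filter, rescaling by the median ratio, no trend, library weights, 1 fit over all 47 libraries, a replicate block and leaving out each clone. The code was tested on simulated data. Figures used Python 3.11.15 with numpy 2.4.6, pandas 2.3.3 and matplotlib 3.10.9.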

Additional observations from a re-analysis of the deposited data

Results flagged for a closer look

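In a class of 4 clones a value stands here when its gap to the nearest other clone, on the log2(RPKM + 1) scale, made up more of the whole range of the class than Dixon's 95% critical value for 4 values allows. Of 206 gene sets and 86 list sets, 44 passed, 19 of them through SC2 and 21 through SI3. Chance alone marks about 1 in 20 sets that were not chosen by their values. That rate does not apply to genes named for their difference, adjusted p or level at d23. Nor does it apply to the 32 sets of genes named after their values were seen, of which 7 passed (Isg15, Krt14, Krt17 in both classes, Fgf8, Cd200 and Tcl1). The lists were chosen with earlier results of these data known, so the 44 cannot be read against that rate. No explanation was tested for the flagged values.

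In RPKM, SC2 was the low clone of its class for Nanog at 20.31 (80.71 to 105.41 in the others), Lin28a at 17.91 (53.06 to 64.91 in the others) and Nr0b1 at 2.93 (11.12 to 13.41 in the others). SC2 also stood low for Mcm3 at 38.6 (122.74 to 132.94 in the others), Mcm5 at 20.21 (65.83 to 76.39 in the others) and Tet1 at 4.3 (17.27 to 18.71 in the others). It was low, too, for Hells at 8.15 (27.4 to 31.64 in the others), Dkc1 at 10.64 (31.31 to 35.02 in the others) and Ncl at 116.06 (233.31 to 259.6 in the others). Low values in SC2 were further measured for Rif1 at 10.56 (27.31 to 32.98 in the others) and Tcl1 at 2.29 (11.38 to 14.2 in the others). SC2 was the high clone for Krt17 at 85.65 (7.69 to 11.73 in the others).

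In RPKM, SI3 was the low clone of its class for Lefty2 at 0.28 (8.71 to 11.51 in the others) and Msh6 at 6.06 (12.69 to 13.84 in the others). SI3 also stood low for Phc1 at 3.23 (5.94 to 6.65 in the others), Cldn4 at 23.62 (371.56 to 544.21 in the others) and Gsta4 at 16.24 (31.41 to 35.32 in the others). Low values in SI3 were further measured for Pou5f1 at 7.41 (71.18 to 102.71 in the others), Krt8 at 45.83 (431.65 to 555.28 in the others) and Isg15 at 18.46 (74.43 to 92.34 in the others). It was low, too, for Krt14 at 7.35 (92.25 to 134.71 in the others), Krt17 at 1.42 (81.4 to 91.41 in the others) and Cd200 at 4.94 (9.65 to 10.93 in the others). SI3 was the high clone for Cxcl14 at 182.66 (40.98 to 43.09 in the others) and Prrx1 at 115.61 (49.85 to 53.73 in the others).

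SC4 was high for Lifr at 5.27 RPKM (3.56 to 3.72 in the others). SC1 was high for Tyms at 4.94 RPKM (2.65 to 2.87 in the others). SI1 was high for Fasn at 27.01 RPKM (24.25 to 24.57 in the others). SC1 was high for Fgf8 at 13.16 RPKM (2.83 to 3.23 in the others). By mean log2(RPKM + 1) over a list, SC2 was low for pluripotency transcription factors at 3.432 (4.565 to 4.722 in the others), DNA replication at 3.327 (4.497 to 4.544 in the others) and DNA methylation and TET at 3.829 (4.362 to 4.408 in the others). SC2 was also low for the lists of serine, glycine and one-carbon metabolism at 3.573 (4.407 to 4.493 in the others), purine and pyrimidine synthesis at 3.715 (4.477 to 4.482 in the others) and ribosome biogenesis at 4.023 (4.938 to 4.959 in the others). A low list mean in SC2 was measured for proteasome at 4.982 (5.302 to 5.362 in the others). By the same mean, SI3 was low for Wnt pathway at 2.944 (3.154 to 3.181 in the others), Polycomb at 2.402 (2.895 to 2.911 in the others) and epithelial junctions and regulators at 1.73 (4.338 to 4.819 in the others). SI3 was also low for the lists of keratins and squamous genes at 2.491 (5.158 to 5.603 in the others), interferon response at 2.828 (3.947 to 4.122 in the others) and telomere at 1.855 (2.379 to 2.467 in the others). SI3 was high for matrix glycoproteins at 7.046 (6.157 to 6.287 in the others) and growth factor receptors of fibroblasts at 4.084 (3.749 to 3.765 in the others).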

How the results depend on the processing

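The counts as reported were 5021 genes called, 2714 higher and 2307 lower in SC, and 1742 at least 2-fold. With library weights, whose estimation stopped before its tolerance, they were 9771, 4569, 5202 and 2989. All 47 libraries in one fit gave 3588 lower, and no filter on low values gave 2790 higher and 1507 lower. Without SC2 and SI3 together, an alternative chosen after seeing the data, the fit gave 8059 calls, 4390 lower and 2805 at least 2-fold. Leaving out one clone at a time gave 2 to 7597 calls, 2 to 3662 higher, 0 to 3935 lower and 2 to 2962 at least 2-fold. A pseudocount of 0.1, rescaling by the median ratio and a fit with no mean-variance trend kept each of these counts within 1.5 times. With the clone number as a replicate block 2373 genes were called, 1418 higher and 955 lower. Same-numbered SC and SI clones are different clones, their deviations correlated at -0.28, 0.045, -0.34 and 0.24, and not every clone correlated best with its own number, so the numbers give no pairing. For the change of the gap from d22 to d23 the clone block gave 73 calls against 0, and leaving out one clone 0 to 2. The sign of Cdh1 turned with library weights (-0.54), without SI3 (-0.68) and without SC2 and SI3 (-0.77), and that of Mbd3 without SC1 (-0.022). Leaving out one clone gave -0.679 to 1.001 for Cdh1 and -0.022 to 0.126 for Mbd3. The cause was not tested. Of 102 genes named in the text, 86 were called. Of those calls 11 were lost with no filter, 8 with the replicate block, and at most 1 under each of the pseudocount, rescaling, no trend, library weights, the fit over all libraries, and the fits without SC2 or without SC2 and SI3. Leaving out SI1 lost 29, and leaving out any of SC1, SC3, SC4, SI2, SI3 or SI4 lost 82 to 84.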

Other observations

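Further gene groups were called in part, against 42.5% of all genes. Of 12 telomere genes 8 were called higher in SC and 0 lower (median difference 0.80 on the log2 scale), with Rif1, a replication timing and telomere factor, at 27.3, 10.6, 33.0 and 32.8 RPKM in SC1 to SC4 and 5.83, 4.38, 2.00 and 5.50 in SI1 to SI4 (2.26 ± 0.39, adjusted p = 0.0221). In the NRF2 and glutathione list 4 of 22 were higher and 8 lower. Gsta4, a glutathione transferase, was at 52.6 to 142 RPKM in SC and 16.2 to 35.3 in SI (1.796 ± 0.341, adjusted p = 0.0221), and Gsto1 was at 32.7 to 90.0 RPKM in SC and 92.2 to 183 in SI (-1.36 ± 0.34, adjusted p = 0.0257). Sterol and fatty acid synthesis genes were higher in 6 of 29 and lower in 2, with Fasn, fatty acid synthase, at 34.6 to 60.8 RPKM in SC and 24.3 to 27.0 in SI (0.84 ± 0.17, adjusted p = 0.0221).

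Of 14 genes of MHC class I presentation 2 were called higher and 2 lower. B2m, the light chain of MHC class I, was at 195, 341, 158 and 148 RPKM in SC and 360.4, 414, 632 and 398 in SI (-1.14 ± 0.31, adjusted p = 0.0278). Psmb10, an immunoproteasome subunit, had a mean of 24.7 ± 12.1 RPKM in SC and 7.63 ± 1.89 in SI (SD, n = 4 each), without overlap (1.46 ± 0.34, adjusted p = 0.0241). Of 24 receptors typical of fibroblasts 9 were lower and 2 higher, and Kit, the stem cell factor receptor, was among the higher ones, at 4.82, 2.13, 8.57 and 6.97 RPKM in SC and 0.09 to 1.01 in SI (2.00 ± 0.35, adjusted p = 0.0221). Of 19 cytokines and chemokines 4 were lower and 0 higher. Csf1, the macrophage growth factor, was at 15.2 to 69.5 RPKM in SC and 85.2 to 134 in SI (-1.81 ± 0.44, adjusted p = 0.0249). Without SC2 the counts higher and lower were 8 and 0 for telomere genes, 7 and 10 for NRF2 and glutathione, 12 and 7 for sterol and fatty acid synthesis, 2 and 5 for MHC class I presentation, 2 and 14 for the receptors and 1 and 9 for cytokines. Y-linked Ddx3y was at 2.02, 3.77, 6.46 and 11.6 RPKM in SC and 13.5, 20.8, 9.88 and 12.7 in SI (-1.28 ± 0.42, adjusted p = 0.0397).

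Gene levels also differed by chromosome. The 930 tested genes on chromosome 11 of the RefSeq table had a median difference of 0.20, against -0.12 to 0.10 on each of the other autosomes and X, and -0.03 over all 10875 other tested genes. On chromosome 11, 28.1% of the genes were called higher, against 22.6% of the others, and 14.5% were called lower, against 19.5% of all genes tested. Among genes with a mean of at least 5 RPKM, the chromosome 11 genes of each SC clone were set against the median SC clone, and lay at a median of -0.20 in SC1 and SC2, 0.14 in SC3 and 0.13 in SC4 at d23. In the iPS libraries of the same clones the values were -0.20, -0.41, 0.20 and 0.20, where all other genes of SC2 stood at -0.14. In SI3 the chromosome 1 genes lay at -0.31 at d23 and -0.30 at d22, against -0.08 and -0.06 for all other genes, and at 0.01 at d27. Chromosome 1 also stood apart in other clones at d14. It lay then at 0.165, -0.142, -0.119 and 0.158 in SI1 to SI4 and at -0.131 in SC4. These values were noticed after the data were seen, and their part in the differences above was not tested.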
